A study of Mus musculus with 12 samples.

Results

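The genes described here are 52 members of the machinery that copies DNA and divides cells, taken by gene name from the 55536 genes of the deposited tables. They fall into 22 replication members, which act mainly in late G1 and S phase, and 30 mitotic members, which act mainly in G2 and M phase. All 52 passed the filter on low values in each comparison. The libraries are polyadenylated RNA of the stromal vascular fraction (SVF), the non-adipocyte cells released from fat tissue, of the inguinal white depots of 12 male mice kept at room temperature. Of these mice 4 were 12 months old with a Pdgfrb knockout (Pdgfrβ-KO), 4 were 12-month controls and 4 were 2-month controls, with 1 library per mouse. In the study's design the knockout mice carried Sma-CreERT2, a tamoxifen-inducible Cre driven by the smooth muscle actin promoter, with Pdgfrb fl/fl and a Rosa26 reporter. Pdgfrb was therefore deleted only in cells that used that promoter when tamoxifen was given, while the SVF also holds endothelial, immune and other stromal cells. GEO labels both control groups wild type, and the study calls the 12-month controls Sma-Control, mice with the same Cre driver and reporter. The study's methods give RNA extraction for tissue pieces and for cells in culture and name the inguinal depot as the origin of the sequenced RNA, so whether SVF cells were plated before extraction is not given in the sources used here.

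Cells commit to division when cyclin-dependent kinases inactivate the retinoblastoma protein and release E2F factors, which switch on replication genes. The Mcm helicase is then loaded on origins and fired, and nucleotide-making enzymes, the sliding clamp and histone chaperones work behind it. After S phase a second wave of genes, driven by B-Myb and FoxM1 at promoters with CHR elements, supplies the mitotic kinases, kinetochores, spindle and cytokinetic ring. In adipose SVF, the dividing cells that can supply messages of both waves include progenitors, endothelial cells and immune cells. Bulk RNA does not show which cells a message came from, or whether those cells were dividing. In bulk RNA, fewer cells of a type and less RNA per cell cannot be told apart.

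The promoters of 6 members, the 3 replication and the 3 mitotic members with the smallest p in the comparison of 12-month Pdgfrβ-KO with 12-month control, are shown because promoter motifs distinguish the 2 waves. Each window runs 5′ to 3′ and covers 250 bases before to 50 after the start, from RefSeq on GRCm38.p6. Capitals mark matches on either strand to E2F sites, CHR elements and CCAAT boxes. For E2F the letters searched were TTCCCGC, and likewise TTGGCGC, and likewise TTCGCGC, and likewise TTGCCGC. For CHR they were TTTGAA, and likewise the palindrome TTCGAA. The first listed start was used where a gene has several.
Tk1, chr11:117825965-117826264, minus strand: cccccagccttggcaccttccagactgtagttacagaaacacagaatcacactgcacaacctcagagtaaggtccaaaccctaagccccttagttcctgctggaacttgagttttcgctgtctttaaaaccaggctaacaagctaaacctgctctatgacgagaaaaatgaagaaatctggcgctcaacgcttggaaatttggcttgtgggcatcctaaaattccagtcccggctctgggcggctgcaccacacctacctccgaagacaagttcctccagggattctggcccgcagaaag
Chaf1a, chr17:56040166-56040465, plus strand: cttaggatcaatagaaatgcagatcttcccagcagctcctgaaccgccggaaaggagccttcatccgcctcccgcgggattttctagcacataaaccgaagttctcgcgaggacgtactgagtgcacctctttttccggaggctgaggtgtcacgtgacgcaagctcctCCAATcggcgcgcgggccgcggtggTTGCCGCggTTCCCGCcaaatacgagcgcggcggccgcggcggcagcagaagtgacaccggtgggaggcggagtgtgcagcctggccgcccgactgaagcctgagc
Mcm5, chr8:75109259-75109558, plus strand: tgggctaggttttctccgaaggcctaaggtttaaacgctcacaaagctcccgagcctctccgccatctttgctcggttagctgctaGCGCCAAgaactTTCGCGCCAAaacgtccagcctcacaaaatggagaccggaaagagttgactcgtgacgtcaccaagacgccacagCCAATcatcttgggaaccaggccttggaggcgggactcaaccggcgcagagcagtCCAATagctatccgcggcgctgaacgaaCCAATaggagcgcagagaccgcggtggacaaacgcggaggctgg
Prc1, chr7:80294201-80294500, plus strand: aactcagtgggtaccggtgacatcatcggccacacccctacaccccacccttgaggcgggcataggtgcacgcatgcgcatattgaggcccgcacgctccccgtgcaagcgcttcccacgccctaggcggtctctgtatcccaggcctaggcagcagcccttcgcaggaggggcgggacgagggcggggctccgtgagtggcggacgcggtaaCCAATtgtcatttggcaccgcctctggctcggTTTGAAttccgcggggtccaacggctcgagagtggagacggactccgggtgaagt
Nuf2, chr1:169531415-169531714, minus strand: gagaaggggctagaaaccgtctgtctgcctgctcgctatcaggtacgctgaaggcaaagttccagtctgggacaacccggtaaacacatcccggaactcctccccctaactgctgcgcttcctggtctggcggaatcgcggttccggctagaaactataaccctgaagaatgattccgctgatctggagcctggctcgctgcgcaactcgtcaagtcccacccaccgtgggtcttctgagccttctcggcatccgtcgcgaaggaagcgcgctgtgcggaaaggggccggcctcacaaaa
Top2a, chr11:99024140-99024439, minus strand: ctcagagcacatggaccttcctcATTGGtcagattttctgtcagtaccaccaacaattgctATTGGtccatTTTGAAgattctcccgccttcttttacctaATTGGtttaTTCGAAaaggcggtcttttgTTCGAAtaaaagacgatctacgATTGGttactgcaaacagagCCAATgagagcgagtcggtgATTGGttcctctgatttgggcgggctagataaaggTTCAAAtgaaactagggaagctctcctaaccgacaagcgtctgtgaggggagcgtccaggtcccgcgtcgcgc
Chaf1a had 2 E2F matches and 1 CCAAT match, and Mcm5 had 3 E2F matches, 2 of which overlap, and 3 CCAAT matches. Prc1 had 1 CHR and 1 CCAAT match within 50 bases of its start, and Top2a had 4 CHR and 6 CCAAT matches. The windows of Tk1 and Nuf2 held none of these letters.

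Over the members, the 2 classes differed in their promoter letters. The table of promoters held 45 of the 52 members and lacked 7, Gins2, Mcm4, Ccne2, Ccna2, Aurkb, Tpx2 and Kif20a. A CHR match stood in 20 of 26 mitotic windows (76.9%), 3 of 19 replication windows (15.8%) and 19.4% of the windows of all 27025 genes. An E2F match stood in 5 of 26 mitotic windows (19.2%), 11 of 19 replication windows (57.9%) and 9.7% of all windows. CCAAT boxes were in 76.9% of mitotic, 68.4% of replication and 37.9% of all windows, and CHR and CCAAT together were in 69.2%, 15.8% and 7.7% of these sets. A reversed CCAAT box can share letters with TTGGCGC. These matches are a description of letters, with no test.

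**Figure D1:**
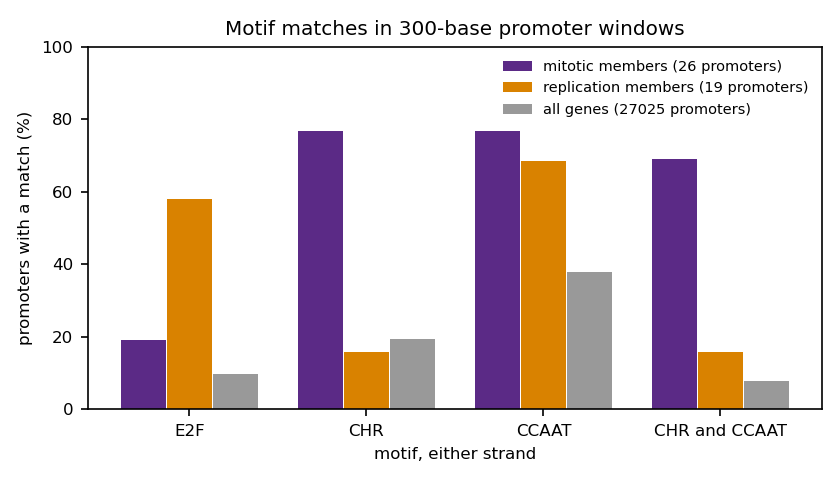
Share of 300-base promoter windows (y axis, percent) with at least 1 match on either strand to E2F, CHR, CCAAT or both CHR and CCAAT (x axis) in 26 mitotic members, 19 replication members and 27025 genes. CHR matches were in 76.9% of mitotic windows and E2F matches in 57.9% of replication windows.

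Values are counts that the authors divided by a size factor per library and rounded, called normalized counts here. Their totals were 19616978 to 21872836 in 12-month Pdgfrβ-KO, 19899057 to 20577159 in 12-month control and 20253755 to 21334824 in 2-month control libraries. Depths before normalization, estimated from the gaps that division leaves in the low values, were 13800000 to 20000000 counts in knockout, 21000000 to 29000000 in 12-month control and 21400000 to 24800000 in 2-month control libraries, so the knockout libraries were the shallowest. All 12 fibroblastic progenitor, 10 mural and 10 endothelial markers were detected in each group, and 8 mature adipocyte markers summed to 56945 to 117574 normalized counts in knockout, 57934 to 102953 in 12-month control and 54443 to 72891 in 2-month control libraries. These sums mostly follow Fabp4, at 113632, 109455, 53346 and 58902 in knockout libraries. Of the 8 markers 0 were called higher in knockout against 12-month control SVF. Retn was lower, at 43, 70, 33 and 45 in knockout, against 203, 210, 157 and 174 in 12-month control libraries. Pdgfrb itself had 1882, 2145, 1707 and 1749 normalized counts in 12-month Pdgfrβ-KO, against 3000, 4380, 3258 and 2399 in 12-month control and 2536, 2367, 2349 and 2407 in 2-month control SVF. Every knockout library was below all 8 controls, and the log2 fold change against 12-month control was -0.77 ± 0.17 (SE; adjusted p = 0.016).

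The first comparison asked how members differed between 12-month Pdgfrβ-KO and 12-month control SVF. Mitotic messages were higher in knockout SVF almost without exception and replication messages less uniformly. Of the 30 mitotic members, 29 rose, 0 fell and Cenpa did not pass the test, with a median log2 fold change of 1.24 (2.36-fold). Of the 22 replication members, 11 rose, 0 fell and 11 did not pass, with a median of 0.53 (1.45-fold). Among all 16344 genes tested, 4.96% were called higher and 4.46% lower and the median was -0.01. All 4 knockout libraries were above all 4 of the 12-month controls for 29 mitotic and 14 replication members, against 9.05% of genes. No member was lower in either class at an unadjusted p under 0.05, while 30 mitotic and 16 replication members were higher at that level. The test was limma on log2(value + 1), two-sided, with Benjamini-Hochberg adjustment over all genes tested and a threshold of 0.05.

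**Figure D2:**
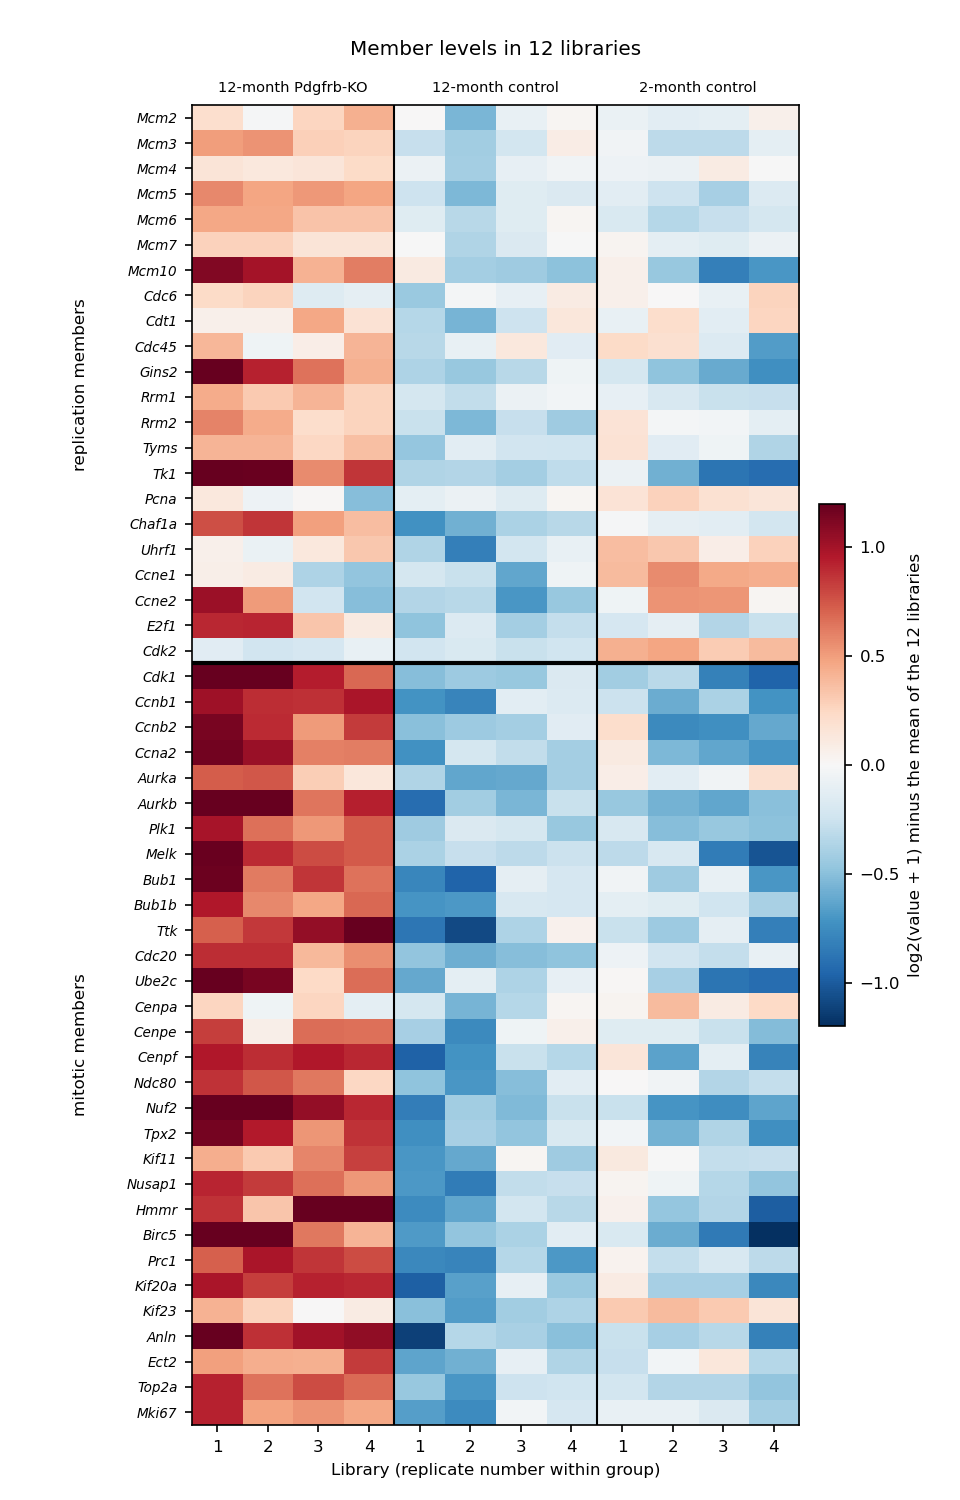
Each cell is log2(normalized count + 1) minus the mean of the 12 libraries for 1 member (rows, 22 replication above 30 mitotic) and 1 library (columns, 4 per group), and colours saturate at the ends of the scale. The knockout columns are red in nearly all mitotic rows, while replication rows such as Pcna, Cdk2 and Ccne1 and the mitotic rows Cenpa and Kif23 differ less or are red in the 2-month columns.

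Beginning with the licensing and helicase members, 5 of 11 rose in 12-month Pdgfrβ-KO SVF. Mcm5, a subunit of the replicative Mcm2-7 helicase, had 1487, 1385, 1429 and 1379 normalized counts in 12-month Pdgfrβ-KO, against 840, 685, 898 and 883 in 12-month control and 913, 838, 753 and 886 in 2-month control libraries. The knockout libraries lay close together and above every control. The log2 fold change against 12-month control was 0.79 ± 0.11 (SE; adjusted p = 0.00167). The other subunits had smaller differences, with Mcm3 at 0.61 ± 0.13 (adjusted p = 0.0133) and Mcm6 at 0.55 ± 0.10 (adjusted p = 0.00809). Mcm2, Mcm4 and Mcm7 did not pass, at 0.37 (adjusted p = 0.132), 0.32 (0.0848) and 0.35 (0.0666), although the knockout and 12-month control libraries of Mcm4 and Mcm7 did not overlap.

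Gins2, a subunit of the GINS complex that activates the helicase, had 330, 265, 218 and 187 normalized counts in 12-month Pdgfrβ-KO, against 107, 101, 110 and 134 in 12-month control libraries. Mcm10, which helps the helicase start, had 205, 190, 127 and 145 in knockout, against 102, 71, 70 and 67 in 12-month control libraries. For both genes knockout replicates 1 and 2 were the highest and no knockout library reached down to a control. The log2 fold changes were 1.11 ± 0.19 for Gins2 (adjusted p = 0.00522) and 1.09 ± 0.21 for Mcm10 (adjusted p = 0.00986). Of the exons of Gins2, 67.3% lie opposite exons of Gse1, and the strand setting of the counting is not given in the sources used here, so its value is uncertain. The loading factors Cdc6 and Cdt1 and the helicase cofactor Cdc45 did not pass, at 0.17, 0.44 and 0.32 (adjusted p = 0.542, 0.0956 and 0.282).

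All 4 enzymes of nucleotide supply rose in knockout SVF. Tk1, the thymidine kinase of S phase, had 538, 513, 335 and 410 normalized counts in 12-month Pdgfrβ-KO, against 175, 176, 169 and 182 in 12-month control and 214, 151, 122 and 119 in 2-month control SVF. The lowest knockout library was 335 and the highest of the 8 controls was 214. Its log2 fold change against 12-month control, 1.33 ± 0.16 (adjusted p = 0.000827), was the highest among replication members. Rrm2, the S-phase subunit of ribonucleotide reductase, was at 0.75 ± 0.13 (adjusted p = 0.00448), and Rrm1, the large subunit, at 0.51 ± 0.10 (adjusted p = 0.0103). Tyms, which makes thymidylate, was at 0.62 ± 0.13 (adjusted p = 0.0157).

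Behind the fork, the members did not move as one. Chaf1a, the large subunit of the histone chaperone CAF-1, had 608, 645, 501 and 460 normalized counts in 12-month Pdgfrβ-KO, against 215, 239, 274 and 283 in 12-month control and 354, 330, 326 and 305 in 2-month control SVF. All knockout libraries were above all controls, and the log2 fold change against 12-month control was 1.12 ± 0.15 (adjusted p = 0.00126). Of the exons of Chaf1a, 52.5% lie opposite those of Ubxn6, with the same limit as for Gins2. Pcna, the sliding clamp that tethers the polymerases, had 6637, 5835, 6149 and 4266 in knockout, against 5592, 5776, 5463 and 6165 in 12-month control SVF. These groups overlapped, and the log2 fold change was -0.02 (95% interval -0.33 to 0.28; adjusted p = 0.93). A processed copy, Pcna-ps2, was listed with 49 to 758 normalized counts, so reads may be split between the 2 and the value of Pcna is uncertain. Uhrf1, which guides maintenance DNA methylation at the fork, was at 0.48 ± 0.16 and did not pass (adjusted p = 0.0897).

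Of the 4 G1/S regulators, E2f1 alone rose. E2f1, an activating E2F factor, had 751, 754, 505 and 432 normalized counts in 12-month Pdgfrβ-KO, against 286, 357, 301 and 327 in 12-month control SVF. Knockout replicates 1 and 2 were the highest, and the log2 fold change was 0.90 ± 0.19 (adjusted p = 0.0125). Ccne2, a cyclin E, had 217, 151, 90 and 74 in knockout, against 83, 84, 65 and 77 in 12-month control SVF, the widest relative spread of any member in the knockout group (coefficient of variation 48.9%). It was at 0.66 ± 0.30 and did not pass (adjusted p = 0.195). Ccne1, the other cyclin E, and its partner kinase Cdk2 were at 0.12 (95% interval -0.28 to 0.51) and 0.06 (95% interval -0.13 to 0.26), with adjusted p of 0.712 and 0.683.

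All 8 cyclins and mitotic kinases rose. Cdk1, the kinase that drives entry into mitosis, had 376, 363, 303 and 254 normalized counts in 12-month Pdgfrβ-KO, against 110, 116, 114 and 139 in 12-month control and 117, 125, 89 and 80 in 2-month control SVF. The lowest knockout library was above the highest of the 8 controls, and the log2 fold change against 12-month control was 1.42 ± 0.16 (adjusted p = 0.000691). The cyclins that partner it rose with it, Ccnb1 by 1.40 ± 0.18 (adjusted p = 0.00135), Ccnb2 by 1.22 ± 0.16 (adjusted p = 0.00126) and Ccna2 by 1.26 ± 0.17 (adjusted p = 0.00146). Aurkb, the kinase of the chromosomal passenger complex, had 400, 402, 244 and 298 in knockout, against 82, 116, 106 and 129 in 12-month control SVF. Here too replicates 1 and 2 were the highest, and the log2 fold change was 1.61 ± 0.20 (adjusted p = 0.00109). Aurka, the centrosomal Aurora kinase, rose by 0.98, Plk1, the Polo kinase, by 1.04 and Melk, a kinase of dividing cells, by 1.21 (adjusted p = 0.00613, 0.00243 and 0.00157).

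The 5 checkpoint and anaphase members also rose. Cdc20, the activator of the anaphase-promoting complex, had 651, 648, 461 and 517 normalized counts in 12-month Pdgfrβ-KO, against 252, 233, 246 and 251 in 12-month control SVF. The controls lay close together, well below the knockout libraries, and the log2 fold change was 1.20 ± 0.14 (adjusted p = 0.000667). The checkpoint kinases Bub1 and Ttk and their relative Bub1b rose by 1.34, 1.54 and 1.12 (adjusted p = 0.00572, 0.00608 and 0.00225). Ttk had the lowest mean of all members, with 86, 94, 109 and 127 in knockout, against 28, 24, 40 and 54 in 12-month control SVF. Ube2c, the ubiquitin-conjugating enzyme of the same complex, rose by 1.15 ± 0.24 (adjusted p = 0.0134).

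At centromere and kinetochore 4 of 5 members rose. Nuf2, a subunit of the Ndc80 complex that grips microtubules, had 279, 290, 253 and 229 normalized counts in 12-month Pdgfrβ-KO, against 68, 91, 84 and 101 in 12-month control and 101, 74, 72 and 78 in 2-month control SVF. The groups stood well apart, at 3.05-fold (log2 fold change 1.61 ± 0.17, adjusted p = 0.000448). Cenpf, a large protein of the outer kinetochore, had 392, 372, 394 and 379 in knockout, against 102, 122, 167 and 159 in 12-month control SVF. The knockout libraries were the tightest of any mitotic member in that group (coefficient of variation 2.7%), and the log2 fold change was 1.50 ± 0.17 (adjusted p = 0.00065). Ndc80 rose by 1.08 ± 0.17 (adjusted p = 0.00392). The kinesin Cenpe rose by 0.85 ± 0.22 (adjusted p = 0.0333), a call that was lost without 12-month control replicate 1, 2 or 3 or knockout replicate 1, 3 or 4. Cenpa, the histone H3 variant that marks centromeres, had 1030, 827, 1025 and 792 in knockout, against 742, 583, 678 and 871 in 12-month control SVF. These libraries overlapped, and 0.36 ± 0.14 did not pass (adjusted p = 0.141).

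Spindle and cytokinesis members rose without exception in this comparison. Among spindle members, Tpx2, the Aurora A activator, rose by 1.32, the kinesin Kif11 by 0.97, the microtubule binder Nusap1 by 1.26 and Hmmr, a spindle assembly factor, by 1.40 (adjusted p = 0.00097, 0.0099, 0.00149 and 0.00445). Prc1, which bundles midzone microtubules, had 463, 554, 511 and 483 normalized counts in 12-month Pdgfrβ-KO, against 164, 162, 221 and 174 in 12-month control and 290, 230, 246 and 225 in 2-month control SVF. The 3 groups did not overlap, and the log2 fold change of knockout against 12-month control was 1.48 ± 0.14, with the smallest adjusted p of the members (0.000272). Anln, the anillin of the contractile ring, had 462, 366, 401 and 415 in knockout, against 91, 156, 151 and 140 in 12-month control SVF. Its log2 fold change of 1.63 ± 0.18 was the highest of the 52 members (adjusted p = 0.000643). Birc5, the survivin subunit of the passenger complex, had 543, 554, 259 and 222 in knockout, against 104, 120, 128 and 153 in 12-month control SVF. Replicates 1 and 2 were far above the others, and 1.53 ± 0.29 passed (adjusted p = 0.00912). The midzone kinesin Kif20a rose by 1.45, Kif23, a kinesin of centralspindlin, by 0.69 and Ect2, the exchange factor that starts the furrow, by 0.97 (adjusted p = 0.000924, 0.00632 and 0.0084).

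Top2a, the topoisomerase that untangles sister chromatids, had 2253, 1867, 2045 and 1905 normalized counts in 12-month Pdgfrβ-KO, against 869, 734, 1003 and 1010 in 12-month control and 1022, 930, 931 and 854 in 2-month control SVF. Mki67, the antigen Ki-67 that coats mitotic chromosomes, had 2406, 1763, 1837 and 1743 in knockout, against 802, 747, 1237 and 1099 in 12-month control and 1189, 1190, 1125 and 954 in 2-month control SVF. For both genes the lowest knockout library was above every control library. Top2a rose by 1.17 ± 0.12 (adjusted p = 0.000563) and Mki67 by 1.01 ± 0.17 (adjusted p = 0.00522) on the log2 scale.

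**Figure D3:**
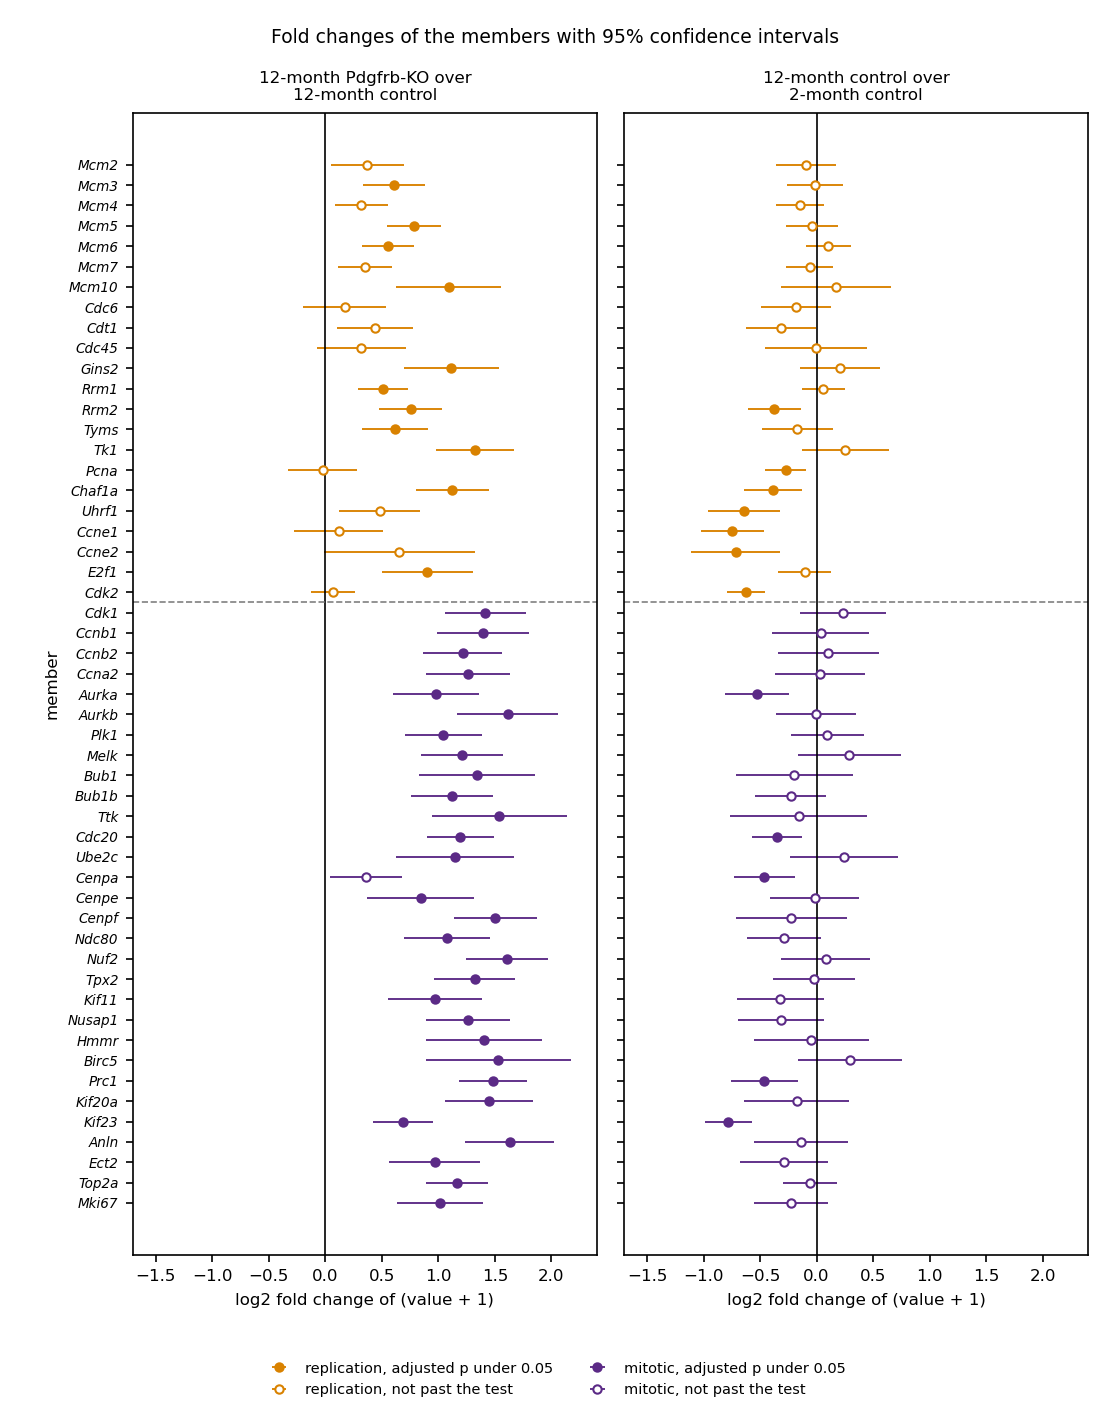
Log2 fold change of (value + 1) with 95% confidence intervals (x axis) for each of 52 members (y axis), 12-month Pdgfrβ-KO over 12-month control on the left and 12-month control over 2-month control on the right, 4 libraries per group. Filled points passed the test, 40 of 52 on the left, all to the right of 0, and 12 of 52 on the right, all to the left of 0.

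Depth and cell type markers moved with the knockout group, and their part in these differences was not tested beyond what follows. The study compared its knockout profiles with the 12-month control data of its age comparison. It does not say whether knockout and control libraries were prepared or sequenced together. If they were not, that difference could not be told apart from genotype. With all libraries thinned to the estimated depth of the shallowest, 29 mitotic and 11 replication members were called higher. The thinning rests on the estimated size factors, of which that of knockout replicate 4 is ambiguous, and changes counting depth only. Without knockout replicates 1 and 2, the 2 shallowest libraries, a fit with 2 knockout libraries called 28 mitotic members and 7 replication members, and the calls of 5 members were lost. Their log2 fold changes in that fit were 0.49 for Mcm3, 0.82 for Mcm10, 0.57 for Tyms, 0.56 for E2f1 and 0.75 for Ube2c, with adjusted p between 0.0526 and 0.0829. Of 10 macrophage markers, 8 were called higher in knockout SVF, and their summed level was 60174 to 103343 normalized counts in 12-month Pdgfrβ-KO, 30344 to 43323 in 12-month control and 15551 to 22454 in 2-month control libraries. Erythroid markers had sums of 64550 to 199724 in knockout, 46608 to 101254 in 12-month control and 26635 to 44611 in 2-month control libraries. Of 12 fibroblastic progenitor markers, Pi16 (-1.13, adjusted p = 0.00247), Dpp4 (-0.68, adjusted p = 0.0256) and Dcn (-0.67, adjusted p = 0.00823) were lower. The other 9 were not called, and the 12 log2 fold changes ran from -1.13 to 0.32 with a median of -0.16. The list summed to 109689 to 117864 in knockout and 130568 to 162983 in 12-month control libraries. Dcn was the largest part of these sums, at 29274, 33231, 32525 and 31906 in knockout and 44875, 58201, 53702 and 46055 in 12-month control libraries. The sum of 10 mural markers was 24231 to 30013 in knockout and 29295 to 50696 in 12-month control libraries, and 0 were called higher or lower. Rgs5 was a large part of it, at 10597, 8218, 5746 and 5441 in knockout and 12272, 22770, 13560 and 9832 in 12-month control libraries. The sum of 10 endothelial markers was 41694 to 61523 in knockout and 54331 to 91243 in 12-month control libraries. The sum of 10 B cell markers was 23611 to 44654 in knockout and 20318 to 30587 in 12-month control libraries. That of 10 germinal centre B cell markers was 3188 to 3829 in knockout and 3105 to 3270 in 12-month control libraries. The 8 keratinocyte markers summed to 773 to 1341 in knockout and 950 to 2879 in 12-month control libraries, and the 8 glandular epithelium markers to 205 to 278 in knockout and 244 to 1607 in 12-month control libraries. The keratinocyte sums mostly follow Sfn, at 927, 1212, 926 and 708 in knockout and 1185, 1045, 880 and 1494 in 12-month control libraries. The filter on low values left 3 keratinocyte markers (Krt10, Dsp and Sfn) and 6 glandular epithelium markers to test. Of these Krt8 alone was called, at -2.58 (adjusted p = 0.0397). Krt5, Krt14 and Csn3 were at 0 in all knockout libraries and were not tested.

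The second comparison asked how members differed between 12-month and 2-month control SVF. Differences were smaller and all called ones were toward lower values at 12 months. Of the 22 replication members 0 rose and 7 fell, with a median log2 fold change of -0.13, and of the 30 mitotic members 0 rose and 5 fell, with a median of -0.15. Among all 16399 genes tested 11.3% were called higher and 11.4% lower, with a median of -0.01, so the mitotic share of 5 in 30 is near the background. At an unadjusted p under 0.05, limma gave 0 higher members in either class, 8 lower replication members and 5 lower mitotic members. In the same comparison 7 of 7 mast cell, 7 of 12 fibroblastic progenitor and 6 of 10 macrophage markers were called higher, as were 5 of 8 mature adipocyte markers (Adipoq, Lep, Cidec, Retn and Pck1). Of 10 mural markers 7 were lower and Rgs5 was higher. The fibroblastic progenitor sum was 130568 to 162983 normalized counts in 12-month control and 85613 to 115949 in 2-month control libraries, the mast cell sum 4464 to 8702 and 2050 to 3125 in these groups, and the mural sum 29295 to 50696 and 47415 to 53876. Their part in the members' differences was not tested.

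Among replication members, the G1/S regulators and the clamp and chromatin members of the fork held 6 of the 7 calls. Cdk2 had 1018, 1047, 989 and 1011 normalized counts in 12-month control, against 1603, 1655, 1467 and 1547 in 2-month control SVF. The groups lay far apart relative to their spread, and Cdk2 fell by 0.62 ± 0.08 on the log2 scale (adjusted p = 0.00021). Ccne1 had 240, 232, 180 and 269 in 12-month control, against 362, 413, 383 and 376 in 2-month control SVF, a log2 fold change of -0.75 ± 0.13 (adjusted p = 0.00189). Uhrf1 had 325, 237, 360 and 393 in 12-month control, against 542, 525, 444 and 509 in 2-month control SVF, at -0.64 ± 0.15 (adjusted p = 0.00955). The ages did not overlap for any of these 3 genes, as for 12.5% of all genes in that direction, and their calls held under every alternative tried. Ccne2 was at -0.72 ± 0.18 (adjusted p = 0.0155), a call lost without 2-month control replicate 2 or 3.

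Rrm2, Pcna and Chaf1a fell less, at -0.37, -0.27 and -0.39 (adjusted p = 0.0262, 0.033 and 0.0337). Pcna had 5592, 5776, 5463 and 6165 normalized counts in 12-month control, against 6812, 7375, 6886 and 6706 in 2-month control SVF, with the limit from its processed copy given above. The call of Rrm2 was lost without 2-month control replicate 1, 2 or 3 or 12-month control replicate 2 or 4. That of Pcna was lost without any 1 of the 2-month controls or 12-month control replicate 1 or 3, and that of Chaf1a without any 1 of the 2-month controls or 12-month control replicate 1 or 2. The 11 licensing and helicase members did not pass, Cdt1 alone having an unadjusted p under 0.05, with log2 fold changes between -0.32 and 0.21. Called replication members numbered 4, 3 and 3 without 2-month control replicate 1, 2 or 3.

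The mitotic members that fell were Kif23, Aurka, Prc1, Cenpa and Cdc20. Kif23 had 441, 394, 469 and 485 normalized counts in 12-month control, against 779, 815, 779 and 699 in 2-month control SVF, with no overlap. It fell by 0.78 ± 0.10 (adjusted p = 0.000229) and was the only mitotic call that held under every alternative tried. Aurka, at -0.53 ± 0.13 (adjusted p = 0.0147), was lost without 2-month control replicate 4, and Cenpa, at -0.46 ± 0.13 (adjusted p = 0.0207), without 2-month control replicate 2 or 4. Prc1, at -0.46 ± 0.14 (adjusted p = 0.0318), was lost without any 1 of the 2-month controls or 12-month control replicate 1, 2 or 4. Cdc20, at -0.35 ± 0.10 (adjusted p = 0.0298), was lost without 2-month control replicate 1, 2 or 4 or 12-month control replicate 2 or 4. Called mitotic members numbered 3, 2 and 1 without 2-month control replicate 1, 2 or 4, and 3 without 12-month control replicate 2 or 4. Cdk1, Top2a and Mki67 did not pass, at 0.24 (adjusted p = 0.344), -0.06 (0.741) and -0.22 (0.303).

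**Figure D4:**
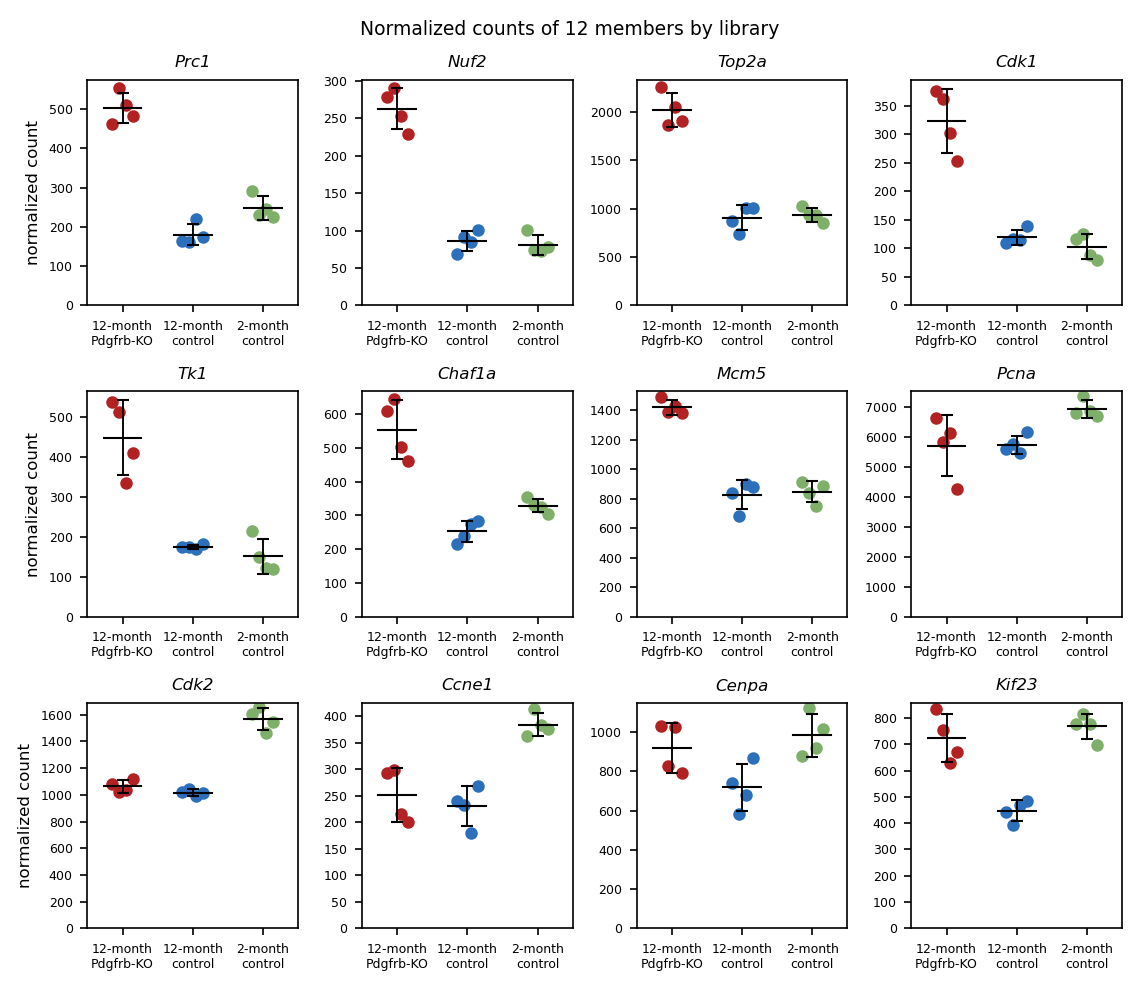
Normalized counts (y axis, from 0) of 12 members in each library (points), with the group mean (line) and SD (bars), 4 libraries per group. Prc1, Nuf2, Top2a, Cdk1, Tk1, Chaf1a and Mcm5 are highest in all knockout libraries, whereas Cdk2 and Ccne1 are highest in 2-month controls.

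The third comparison, 12-month Pdgfrβ-KO against 2-month control SVF, was added after the data were seen and joins libraries of both tables, whose 12-month control values were equal in 100% of genes. It shares the knockout libraries with the first comparison and the 2-month controls with the second. Its groups differ in both age and genotype, which cannot be told apart within this comparison. Of the 30 mitotic members 28 rose and 0 fell (median 1.21; also 0 lower by limma at an unadjusted p under 0.05), and of the 22 replication members 12 rose and 2 fell (median 0.35). Among all 16370 genes tested, 22.4% were called higher and 22.7% lower, so calls were common in this comparison. Markers called higher in it included 9 of 10 macrophage, 7 of 7 erythroid, 6 of 7 mast cell and 7 of 10 B cell markers. Markers called lower included 8 of 10 mural, 7 of 10 endothelial and 5 of 6 glandular epithelium markers (Krt7, Krt8, Krt18, Cdh1 and Epcam). Their part in the members' differences was not tested. Nuf2 was at 1.69 ± 0.16 (adjusted p = 3.02e-05), Top2a at 1.11 ± 0.10 (adjusted p = 2.31e-05) and Tk1 at 1.58 ± 0.21 (adjusted p = 0.000234). Cenpa and Kif23 did not pass, at -0.10 (adjusted p = 0.513) and -0.10 (0.503).

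Cdk2 and Ccne1 were the members that fell. Cdk2 had 1081, 1018, 1033 and 1120 normalized counts in 12-month Pdgfrβ-KO, against 1603, 1655, 1467 and 1547 in 2-month control SVF, at -0.56 ± 0.09 (adjusted p = 0.000538). Ccne1 had 292, 299, 215 and 200 in knockout, against 362, 413, 383 and 376 in 2-month control SVF, at -0.63 ± 0.15 (adjusted p = 0.00602). Both were therefore lower in each 12-month group than at 2 months, with no overlap, which in this comparison was the case for 20.4% of genes toward lower and 20.4% toward higher values. Calls of 4 members were lost when 1 library was left out. Mcm7 (0.29) was lost without 2-month control replicate 2 or 3, Rrm2 (0.38) without 2-month control replicate 2, 3 or 4 or knockout replicate 1, Tyms (0.45) without 2-month control replicate 2 or 4 or knockout replicate 1, and Aurka (0.45) without any 1 of the 2-month controls or knockout replicate 1 or 2.

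Across the 3 groups, all 4 knockout libraries were above all 8 control libraries for 27 of 30 mitotic and 13 of 22 replication members, against 7.06% of 16960 genes. The exceptions among mitotic members were Aurka, Cenpa and Kif23. The geometric mean of the 30 mitotic members was 332 to 407 normalized counts in 12-month Pdgfrβ-KO, 133 to 174 in 12-month control and 143 to 198 in 2-month control libraries. That of the 22 replication members was 572 to 699 in knockout, 389 to 454 in 12-month control and 451 to 512 in 2-month control libraries. The ratio of the mitotic to the replication mean was 0.552 to 0.591 in knockout, 0.321 to 0.404 in 12-month control and 0.315 to 0.387 in 2-month control libraries. It was thus higher in every knockout library than in any control, while the control groups overlapped. The members together took 0.170% to 0.186% of all normalized counts in knockout, 0.106% to 0.130% in 12-month control and 0.126% to 0.143% in 2-month control libraries.

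**Figure D5:**
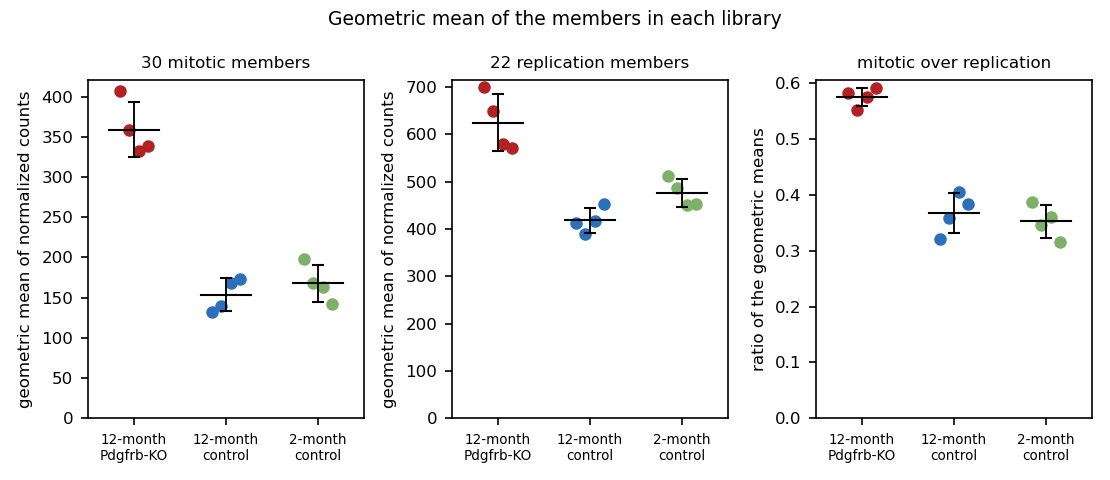
Geometric mean of normalized counts of the 30 mitotic (left) and 22 replication members (middle) and their ratio (right) in each library (points), with the group mean (line) and SD (bars), 4 libraries per group. The ratio is 0.552 to 0.591 in knockout libraries and at most 0.404 in control libraries.

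Within a group, some libraries were high or low for many members. Knockout replicate 1 was the highest of its group for 20 of 30 mitotic and 10 of 22 replication members. Among 2-month controls, replicate 1 was the highest for 22 mitotic members and replicate 4 the lowest for 21. Among 12-month controls, replicates 1 and 2 were the lowest for 16 and 13 mitotic members. The median coefficient of variation of mitotic members was 15.9% in knockout, 17.0% in 12-month control and 15.7% in 2-month control SVF, and that of replication members 13.2%, 11.6% and 8.4% in these groups. Per kilobase of exon, Pcna was the most abundant member in knockout SVF, with a mean of 2384 normalized counts per kilobase, followed by Mcm3 with 536 and Mcm6 with 431, and Ttk the least, with 21.1.

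Among other genes of these pathways, more mitotic than replication genes rose in knockout SVF. In 12-month Pdgfrβ-KO against 12-month control SVF, 4.96% of all genes tested were called higher and 4.46% lower. Of 57 further mitotic genes, 43 rose and 0 fell in that comparison (median log2 fold change 1.06), with 50 higher and 0 lower at an unadjusted p under 0.05. Pbk, a kinase of dividing cells, had 421, 412, 278 and 209 normalized counts in knockout, against 54, 88, 60 and 62 in 12-month control SVF, at 2.27 ± 0.25 (adjusted p = 0.000598). Aspm, a spindle pole protein, rose by 1.30, the kinesin Kif22 by 1.27 and Espl1, the separase that cuts cohesin, by 1.11 (adjusted p = 0.000794, 0.00097 and 0.00109). Of 40 further replication genes, 12 rose and 0 fell (median 0.35), with 21 higher and 1 lower at that level. Lig1, the ligase of Okazaki fragments, rose by 0.86, Clspn, the fork checkpoint adaptor claspin, by 1.25, the flap nuclease Fen1 by 0.65 and the licensing inhibitor Gmnn by 1.05 (adjusted p = 0.00275, 0.00522, 0.00976 and 0.01). Of 19 Rb, E2F and DREAM regulators, limma called 0 higher and 0 lower (median 0.08), near the shares of all genes, with 4 higher and 0 lower at an unadjusted p under 0.05. These 19 leave out the member E2f1, which rose, and Foxm1 and the B-Myb gene Mybl2, which are counted among the further mitotic genes. Foxm1 had 206, 212, 242 and 235 normalized counts in knockout, against 129, 131, 159 and 139 in 12-month control SVF. Mybl2 had 149, 138, 109 and 107 in knockout, against 89, 68, 89 and 94 in 12-month control SVF. For this comparison Foxm1 and Mybl2 are given as values only, without a call.

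In 12-month against 2-month control SVF, 0 of the 57 mitotic genes rose and 3 fell, with 2 higher and 6 lower at an unadjusted p under 0.05. They were the condensin subunit Smc4 (-0.58, adjusted p = 0.0111), Foxm1, a transcription factor of mitotic genes (-0.51, adjusted p = 0.0151), and Ckap2, a spindle protein (-0.50, adjusted p = 0.0407). Of the 40 replication genes 2 rose, Pold2 (0.37) and Dna2 (0.55), and 2 fell, Timeless (-0.59) and Dbf4 (-0.34), with adjusted p between 0.0141 and 0.0428. These counts stand against 11.3% of all genes called higher and 11.4% called lower. Of the 19 regulators 3 fell, a share near that of all genes, the repressor E2f7 (-0.70, adjusted p = 0.00269), the activator E2f2 (-0.75, adjusted p = 0.00391) and Nfya, a subunit of the CCAAT-binding factor (-0.56, adjusted p = 0.0332). In 12-month Pdgfrβ-KO against 2-month control SVF, where 22.4% of all genes were called higher and 22.7% lower, 47 of 57 mitotic genes rose and Smc4 fell (-0.59, adjusted p = 0.00276). Of the 40 replication genes 20 rose and 3 fell, Timeless (-0.53), Pola2, a subunit of the primase polymerase (-0.47), and Orc4, a subunit of the origin recognition complex (-0.30), with adjusted p between 0.0138 and 0.0309. Of the 19 regulators 0 rose, with 0 higher at an unadjusted p under 0.05, and 5 fell, a share near that of all genes. Those 5 were E2f7 (-0.94), Nfya (-1.10), Nfyc (-0.45), Lin54 (-0.36) and E2f2 (-0.27), with adjusted p between 0.000141 and 0.0417.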

How the data were processed

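SVF RNA of 12 mice was sequenced from poly(A), directional libraries. Per the submitters' notes the authors used Trim Galore 0.6.0, cutadapt, FastQC, STAR 2.7.0e, GRCm38 and DESeq2 1.26.0. The deposited score of a gene is its read count after the authors' size-factor scaling in DESeq2, given as whole numbers. The counter, annotation and strand setting are not given in the sources used here. The 2 tables, each with 2 groups of 4 libraries, list 55536 genes. GENCODE vM21 holds 55450 of the identifiers, and 27 names had turned into dates and the identifier of Cdk1 differed in 1 table. Lines with no gene (4) and empty columns (5) were left out, and 0 other value columns were found.

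Because the scores are normalized and rounded, limma 3.58.1 (R 4.3.3, trend and robust) was fitted to log2(score + 1), for genes of at least 10 in at least 4 of 8 libraries. Fold changes are on that scale, which understates changes of low genes. Each comparison used its own 8 libraries, with no block. The study describes its control and knockout mice as littermates, but the labels do not say whether equal replicate numbers mark paired mice. Size factors were estimated from gaps in low values, which cover counting depth only; that of knockout replicate 4 (1.02) is ambiguous. The fits were tested on simulated data. All 52 members could be named, and of each other list up to 4 genes with the smallest p past the threshold. A small count (5 or fewer genes) is spelled out by name. Pdgfrb, Foxm1, Mybl2 and markers that lead a sum were named outside this rule. Members, lists and markers were chosen with earlier results of these data known, so no test was made over a list. The labels say that replicates are biological. Python 3.11.15, pandas 2.3.3 and scipy 1.17.1 were used.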

Additional observations from a re-analysis of the deposited data

Results flagged for a closer look

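In 156 groups of 4 libraries (52 members in 3 groups), 7 held a library far from the other 3 relative to the group's range, and chance alone gives about 1 in 20. In 12-month Pdgfrβ-KO SVF these were Mki67 in replicate 1, at 2406 against 1743 to 1837 in the others, and Ect2 in replicate 4, at 197 against 147 to 154. In 12-month control SVF they were Mcm4 in replicate 2, the lowest at 712 against 882 to 913, and Mcm10 in replicate 1, at 102 against 67 to 71. In 2-month control SVF all 3 were in replicate 1, with Ccnb2 at 230 against 117 to 130, Ccna2 at 291 against 165 to 186 and Plk1 at 119 against 95 to 99.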

How the results depend on the processing

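Of calls in 12-month Pdgfrβ-KO against 12-month control SVF, 27 of 29 mitotic and 7 of 11 replication members held under every alternative (other pseudocounts, filters, scalings and variance settings, all 12 libraries in 1 fit, replicate block, thinning, libraries left out). In 12-month against 2-month control SVF 1 of 5 mitotic and 3 of 7 replication calls held. There, lower replication members numbered 4 with all 12 libraries in 1 fit, and lower mitotic members 3 with no filter on low values and 3 with the replicate block. The labels give no shared source for equal replicate numbers. Same-number correlations of deviations ran between -0.21 and 0.15 in that comparison and between -0.02 and 0.38 in the knockout comparison, where the block gave 14 higher replication and 29 higher mitotic members. Without knockout replicates 1 and 2, higher replication members numbered 7 against 12-month control, lower ones 4 against 2-month control, and Cdc6 and Ccne1 were at -0.016 and -0.14 against 12-month control. With 1 library left out, lower members at 12 against 2 months numbered 3 to 7 (replication, median -0.17 to -0.10) and 1 to 5 (mitotic, median -0.27 to -0.04). Higher members of knockout against 12-month control numbered 11 to 12 (median 0.48 to 0.59) and 28 to 29 (1.14 to 1.31), and against 2-month control 9 to 13 (0.30 to 0.43) and 27 to 28 (1.12 to 1.33), with 2 lower replication members throughout. Top2a between ages was at -0.114 to 0.04 and Pcna in the knockout comparison between -0.17 and 0.11. The causes were not tested. The knockout libraries were the shallowest, and the member with the lowest values, Ttk, rests on the fewest counts.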
